A study of Homo sapiens with 12 samples.

Results

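The genes described here are 10 markers and regulators of the epithelial-mesenchymal transition: CDH1, EPCAM, CDH2, FN1, VIM, SNAI1, SNAI2, ZEB1, ZEB2 and TGFB1. They were taken by symbol, whatever their expression, from the 60649 genes counted in each library. RNA sequencing was done on spheroids of SBC3, an established human small cell lung cancer line, in 4 groups of 3 libraries. The groups were a control, teriflunomide alone, lurbinectedin alone, and both drugs in combination. Teriflunomide is an inhibitor of DHODH, an enzyme of pyrimidine synthesis. Lurbinectedin binds DNA and interferes with transcription. The labels state neither a dose nor a time of exposure. Nothing in the labels says whether the 3 libraries of a group came from separate cultures, so p-values measure the spread between these libraries, which may be technical.

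The epithelial-mesenchymal transition is a change of cell state in which epithelial cells loosen their contacts and take on a mesenchymal shape and motility. It is driven by transcription factors of the SNAI and ZEB families, which bind E-box sequences and repress epithelial genes such as CDH1, and it can be induced by TGF-beta. Small cell lung cancer is usually a neuroendocrine tumour, and its less neuroendocrine variants are known for higher expression of mesenchymal genes.

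E-cadherin (CDH1) and EPCAM transcripts were at or near 0 in every group, while SNAI2, TGFB1, VIM, ZEB1, FN1, CDH2 and ZEB2 were all expressed in control spheroids. With lurbinectedin, SNAI1 rose 17.9-fold. In the same libraries CDH2 fell 9.56-fold, ZEB1 7.99-fold, FN1 2.83-fold, ZEB2 2.30-fold and VIM 1.65-fold, and TGFB1 was 1.33-fold higher. SNAI2, the member with the highest level per exon length, had a log2 difference of -0.04 with a 95% interval of -0.50 to 0.42. In the combination, compared with the same control libraries, SNAI1 was 13.4-fold higher and TGFB1 1.29-fold higher, and CDH2 was 6.37-fold, ZEB1 5.52-fold, FN1 2.07-fold, ZEB2 1.80-fold and VIM 1.55-fold lower. With teriflunomide alone, FN1 was the only member called, at 1.40-fold higher.

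Total counts ranged from 23206414 to 33222162 per library. Mitochondrially encoded genes took 6.26% to 7.17% of counts in control libraries. Teriflunomide replicate 3 had a share of 22.6%, against 8.42% and 8.43% in the other teriflunomide libraries, and combination replicate 2 had 24.9%, against 14.6% and 13.1%. These 2 libraries stood apart from their groups, and results that rest on them are also given without them. The lurbinectedin libraries had shares of 13.8% to 17.0%, and the part of this share in the differences from control was not tested. Of the 9 neuroendocrine markers examined, INSM1 had no count in any library, while in controls SYP averaged 16.8 CPM (counts scaled to a common library size) and NEUROD1 4.03 CPM. YAP1, a marker of non-neuroendocrine tumours, averaged 246 CPM. The neuroendocrine markers that define the classic form of the labelled cancer were therefore absent or low in these libraries. Of the fibroblast markers, COL1A1 averaged 266 CPM in controls, and 3 of the 7 (DCN, LUM and PDGFRB) were too low to test. The 5 leukocyte markers summed to at most 0.479 CPM and the 4 endothelial markers to at most 0.629 CPM in any library.

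The promoters of the members were read from RefSeq sequences of the GRCh38.p14 build, as windows from 250 bases before to 50 bases after a transcript start. The table held 13 windows for 6 of the 10 members: CDH2, FN1, VIM, ZEB1, ZEB2 and TGFB1. They were searched on both strands for 3 motifs that do not overlap each other in these windows. CAGGTG is an E-box that SNAI and ZEB proteins are known to bind, and TGACGTCA is the cAMP response element. TGANTCA is a looser form of the site of AP-1 factors such as FOSL1, which has G or C at the N. Of all 35116 windows in the table, 20.6% held CAGGTG, 1.85% held TGACGTCA and 7.71% held TGANTCA. ZEB1 had 7 of the 13 member windows and held the E-box in 2 of them, once in window 1 and 3 times in window 3. No other member had it, so 2 of the 13 member windows held CAGGTG, beside 20.6% of all windows. At least 3 matches in a window occurred in 0.635% of all windows. The 4 matches are shown because they sit at the starts of a member that moved strongly with lurbinectedin, with capitals marking the E-box on either strand and each run written 5′ to 3′ on the plus strand of ZEB1. In the GENCODE 29 annotation, all 30 bases of the window 3 run at +21 to +50 lie in coding sequence. Of the 30 bases of the run at -97 to -68, 24 lie in untranslated exon sequence.
ZEB1 window 1, chr10:31318348-31318377, bases -69 to -40: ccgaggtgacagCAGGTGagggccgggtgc
ZEB1 window 3, chr10:31318966-31319124, bases -250 to -92: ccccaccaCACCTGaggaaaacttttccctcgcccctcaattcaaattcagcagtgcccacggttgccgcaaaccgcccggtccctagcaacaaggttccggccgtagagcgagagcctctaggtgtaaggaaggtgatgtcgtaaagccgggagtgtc
ZEB1 window 3, chr10:31319119-31319148, bases -97 to -68: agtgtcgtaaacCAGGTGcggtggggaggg
ZEB1 window 3, chr10:31319236-31319265, bases +21 to +50: tggcggatggcccCAGGTGtaagcgcagaa
The FN1 window held 1 cAMP response element, 183 bases before the start. A CDH2 window held 1 match to TGANTCA, with A at the N, where the AP-1 site has G or C. Both are given on the minus strand, on which these genes lie, with the motif in capitals. The FN1 stretch ends where the gene begins in the GENCODE 29 annotation, which is upstream of its start in the deposited files.
FN1, chr2:215436173-215436318, bases -250 to -105: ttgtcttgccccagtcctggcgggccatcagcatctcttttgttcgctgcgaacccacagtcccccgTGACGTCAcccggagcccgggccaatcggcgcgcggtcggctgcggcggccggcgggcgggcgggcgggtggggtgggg
CDH2 window 2, chr18:28036725-28036754, bases -113 to -84: aaagggatcagTGAATCAgatgtaataagg
The windows of VIM, ZEB2 and TGFB1, the first CDH2 window and the ZEB1 windows other than 1 and 3 held none of the 3 motifs. A match describes letters in the window and is not evidence of binding.

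The epithelial members were CDH1 (ENSG00000039068.20, chromosome 16, 68737292 to 68835537, plus strand), which encodes E-cadherin of adherens junctions, and EPCAM (ENSG00000119888.11, chromosome 2, 47345158 to 47387601, plus strand), an epithelial surface adhesion protein. Coordinates of genes are those of the deposited files, in hg38. CDH1 had 1, 1 and 0 counts in the control replicates, 1, 0 and 0 in those given lurbinectedin, and 0 in every teriflunomide and combination library. A count of 0 over the 3 teriflunomide libraries allows a level of up to 0.0310 CPM, and over the 3 combination libraries up to 0.0363 CPM. EPCAM had 1 count in control replicate 2, 2 counts in combination replicate 3 and 0 in the other libraries. In a single library, 3 counts corresponded to between 0.0879 and 0.145 CPM. A change of either gene was not detectable at this depth, and neither passed the expression filter, so 8 of the 10 members were tested. These limits reflect counting error alone, because the reads carry no molecular identifiers and PCR copies cannot be recognised.

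**Figure D1:**
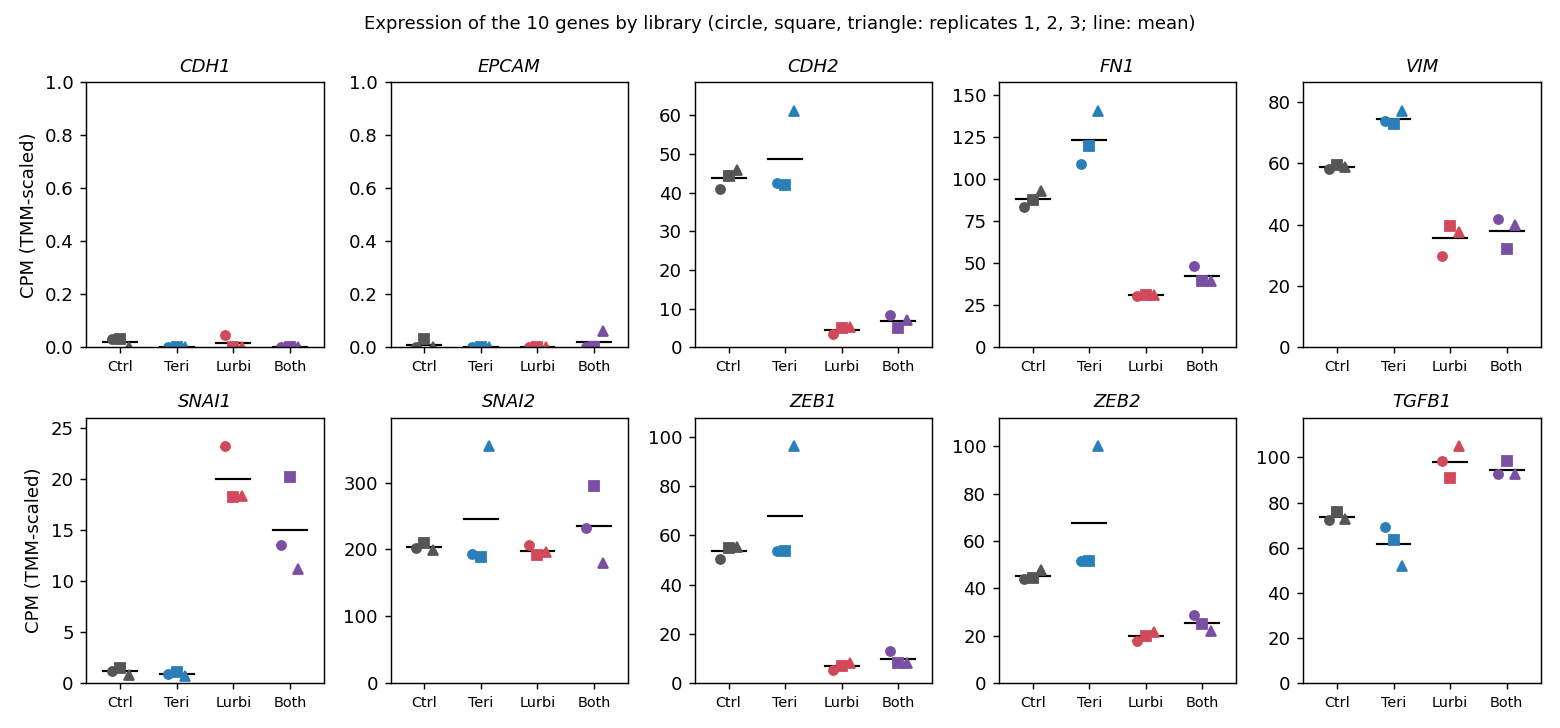
Expression of the 10 members in each library, in CPM (counts scaled by library size and TMM), with circles, squares and triangles for replicates 1, 2 and 3 and a line at the mean of each group (Ctrl, control; Teri, teriflunomide; Lurbi, lurbinectedin; Both, combination). CDH1 and EPCAM lie at 0 or just above it, the 6 libraries with lurbinectedin sit apart from the other 6 for CDH2, FN1, VIM, SNAI1, ZEB1, ZEB2 and TGFB1, and teriflunomide replicate 3 is high for SNAI2, ZEB1 and ZEB2.

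Levels of different genes were compared as CPM per kilobase of exon. In control libraries the order was SNAI2 (62.1), TGFB1 (22.5), VIM (11.4), ZEB1 (6.19), FN1 (5.12), CDH2 (5.09), ZEB2 (1.74) and SNAI1 (0.656). Only FN1 and CDH2 were neighbours whose libraries overlapped. With lurbinectedin the order per kilobase was SNAI2 (60.3), TGFB1 (30.02), SNAI1 (11.7), VIM (6.89), FN1 (1.81), ZEB1 (0.770), ZEB2 (0.753) and CDH2 (0.529). SNAI1 thus went from rank 8 of the levels to rank 3, and CDH2 from rank 6 to rank 8. ZEB1 and ZEB2 overlapped in the lurbinectedin libraries. SNAI1 and VIM overlapped with the combination, as did ZEB1, ZEB2 and CDH2 in turn, and with teriflunomide ZEB1, FN1 and CDH2 did so in turn.

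**Figure D2:**
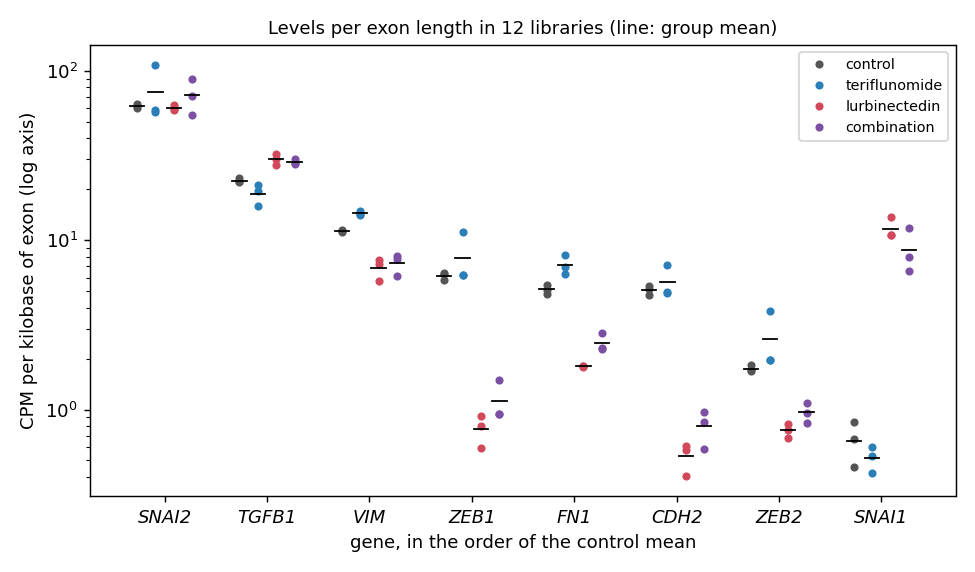
Level of the 8 tested members in the 12 libraries, as CPM per kilobase of exon on a log axis, with genes in the order of their control mean and a line at each group mean. SNAI2 is the highest in every group, at 62.1 in control and 60.3 with lurbinectedin, and SNAI1 moves from 0.656 to 11.7.

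The mesenchymal adhesion and matrix members are CDH2 and FN1. CDH2 (ENSG00000170558.10, chromosome 18, 27932879 to 28177946, minus strand) encodes N-cadherin, the cadherin that replaces E-cadherin in mesenchymal and neural cells. Its level was 40.9, 44.3 and 45.8 CPM in control libraries and 3.49, 4.93 and 5.20 CPM with lurbinectedin. The combination libraries had 8.25, 5.02 and 7.21 CPM, and the teriflunomide libraries 42.6, 42.0 and 61.1 CPM. All 6 libraries with lurbinectedin lay below the other 6 libraries. The log2 fold change against control was -3.26 (SE 0.214, edgeR quasi-likelihood, Benjamini-Hochberg adjusted p = 1.03e-08) with lurbinectedin and -2.67 (SE 0.205, edgeR adjusted p = 6.07e-08) with the combination.

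FN1 (ENSG00000115414.21, chromosome 2, 215360440 to 215436073, minus strand) encodes fibronectin, a glycoprotein of the extracellular matrix. The control libraries had 83.4, 87.9 and 93.2 CPM and the lurbinectedin libraries 30.9, 31.3 and 31.2 CPM. With the combination the level was 48.6, 39.7 and 39.2 CPM. Lurbinectedin and combination libraries did not overlap with control or with each other, and the combination lay between them. Against control, the log2 fold change was -1.503 (SE 0.120, edgeR adjusted p = 7.09e-08) with lurbinectedin and -1.05 (SE 0.118, edgeR adjusted p = 2.70e-06) with the combination.

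VIM (ENSG00000026025.16, chromosome 10, 17228241 to 17237593, plus strand) encodes vimentin, the intermediate filament of mesenchymal cells. It stood at 58.2, 59.6 and 58.7 CPM in control, 29.8, 39.5 and 37.6 CPM with lurbinectedin, and 41.8, 32.0 and 40.0 CPM with the combination. The 6 libraries with lurbinectedin were below every control library and overlapped with each other. The log2 fold change against control was -0.72 (SE 0.127, edgeR adjusted p = 0.000157) with lurbinectedin and -0.63 (SE 0.126, edgeR adjusted p = 0.000526) with the combination. VIM shares 641 exonic bases with the antisense gene VIM-AS1, and because strand use in counting is not stated, reads from that stretch cannot be assigned to either gene. VIM-AS1 had 10 to 64 counts per library.

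Among the transcription factors, SNAI1 and the ZEB genes moved in opposite directions. SNAI1 (ENSG00000124216.4, chromosome 20, 49982980 to 49988886, plus strand) encodes Snail, a repressor of CDH1. It was at 1.14, 1.44 and 0.777 CPM in control and 0.909, 1.02 and 0.715 CPM with teriflunomide. Lurbinectedin libraries had 23.3, 18.3 and 18.4 CPM and combination libraries 13.6, 20.2 and 11.2 CPM. Every library with lurbinectedin was far above every library without it. Against control the log2 fold change was 4.16 (SE 0.263, edgeR adjusted p = 7.07e-09) with lurbinectedin and 3.75 (SE 0.262, edgeR adjusted p = 2.38e-08) with the combination.

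ZEB1 (ENSG00000148516.23, chromosome 10, 31318495 to 31529814, plus strand) encodes a zinc finger repressor of epithelial genes. The levels were 50.5, 54.9 and 55.2 CPM in control, 5.14, 6.92 and 7.92 CPM with lurbinectedin, and 12.9, 8.09 and 8.14 CPM with the combination. These 3 groups did not overlap. The log2 fold change against control was -3.00 (SE 0.258, edgeR adjusted p = 1.54e-07) with lurbinectedin and -2.46 (SE 0.249, edgeR adjusted p = 9.73e-07) with the combination. ZEB1 shares 396 exonic bases with ZEB1-AS1, an antisense gene with 57 to 167 counts per library, and reads in that stretch cannot be told apart.

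ZEB2 (ENSG00000169554.22, chromosome 2, 144364364 to 144521057, minus strand) encodes a repressor closely related to ZEB1. It had 43.8, 44.5 and 47.6 CPM in control, 17.8, 19.7 and 21.4 CPM with lurbinectedin and 28.7, 25.0 and 21.8 CPM with the combination. All libraries with lurbinectedin were below control, and the combination libraries were above those with lurbinectedin alone. The log2 fold changes against control were -1.20 (SE 0.219, edgeR adjusted p = 0.000217) and -0.85 (SE 0.216, edgeR adjusted p = 0.00319). ZEB2 shares 1299 exonic bases with ZEB2-AS1, which had 2 to 10 counts per library.

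SNAI2 (ENSG00000019549.13, chromosome 8, minus strand), which encodes Slug, another repressor of CDH1, had 202, 210 and 199 CPM in control and 206, 192 and 196 CPM with lurbinectedin. The combination libraries had 232, 295 and 180 CPM and the teriflunomide libraries 193, 189 and 355 CPM. The groups overlapped in every comparison. The highest library of each spread-out group was the one with the high mitochondrial share; the part of that share in the SNAI2 values was not tested. Without those 2 libraries, the combination differed from control by 0.01 on the log2 scale, where the difference over all libraries was 0.21.

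The ligand TGFB1 (ENSG00000105329.11, chromosome 19, 41301587 to 41353922, minus strand) encodes the cytokine TGF-beta 1. Its level was 72.2, 75.7 and 72.7 CPM in control, 98.2, 90.7 and 105 CPM with lurbinectedin and 92.7, 98.5 and 92.6 CPM with the combination. The 6 libraries with lurbinectedin lay above all others. The log2 fold change was 0.41 (SE 0.111, edgeR adjusted p = 0.00403) with lurbinectedin and 0.36 (SE 0.111, edgeR adjusted p = 0.00965) with the combination. Neither call held with library size as the only scaling, where the log2 fold changes were 0.18 (edgeR adjusted p = 0.345) and 0.19 (edgeR adjusted p = 0.321). That scaling moved the median of all genes from 0.05 to -0.18 with lurbinectedin and from 0.04 to -0.13 with the combination. The combination call was also lost without the expression filter (edgeR adjusted p = 0.0770). Over the 22 alternatives the adjusted p ran from 1.38e-07 to 0.345 with lurbinectedin and from 0.000395 to 0.321 with the combination. TGFB1 shares 215 exonic bases with HNRNPUL1 on the opposite strand, a gene with 12022 to 21186 counts per library.

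With lurbinectedin against control, 7 of the 8 tested members were called at an adjusted p under 0.05, where 71.6% of all 16683 genes tested were called. The 5 members called lower stood beside 35.7% of all genes called lower, and the 2 called higher beside 36% called higher. A share of 7 in 8 among so many changed genes is not a result about these genes as a group. In the combination against control, 7 of 8 were called, where 68.4% of all genes were. Both comparisons use the same control libraries. In bulk RNA, a lower level can reflect fewer cells of a type or less RNA per cell, and these cannot be told apart.

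**Figure D3:**
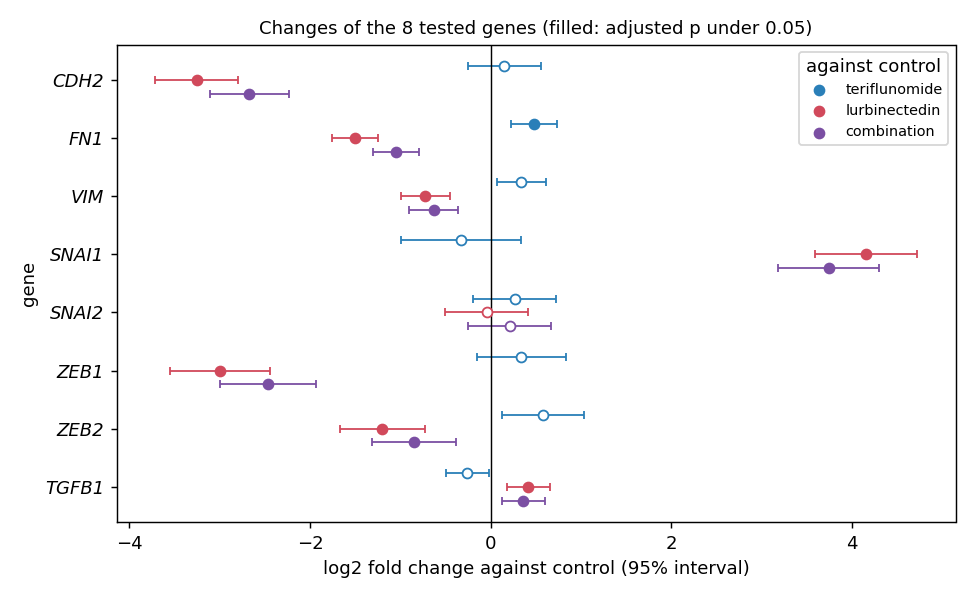
Log2 fold change of the 8 tested members against control with teriflunomide, lurbinectedin and the combination, with 95% intervals from the edgeR fit and filled points for an adjusted p under 0.05. SNAI1 lies far to the right with lurbinectedin (4.16) and the combination (3.75), CDH2 (-3.26) and ZEB1 (-3.00) lie farthest to the left, and FN1 is the only filled point for teriflunomide.

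The change with lurbinectedin varied with the genomic span of a gene, and the members differ widely in span. CDH2, ZEB1 and ZEB2 span 245, 211 and 157 kb and fall in the longest of 10 equal span groups of nuclear genes tested, in which the median log2 fold change was -2.80 and 88.8% of genes were called lower. Within that group, ZEB2 (-1.20) was above 81.7% of genes, ZEB1 (-3.00) above 44.9% and CDH2 (-3.26) above 39.0%. FN1, with a span of 75.6 kb, was in a span group with a median of -0.61, and its value was above 16.6% of that group. TGFB1, with 52.3 kb, was above 75.5% of its span group, whose median was -0.14. VIM spans 9.35 kb and SNAI1 5.91 kb. Both were in span group 3 from the shortest, with a median of 0.65, where VIM (-0.72) was above 9.61% of genes and SNAI1 (4.16) above 98.3%. SNAI2 spans 4.14 kb and was above 25.0% of span group 2, which had a median of 0.65. The part of gene span in the members' values was not tested.

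**Figure D4:**
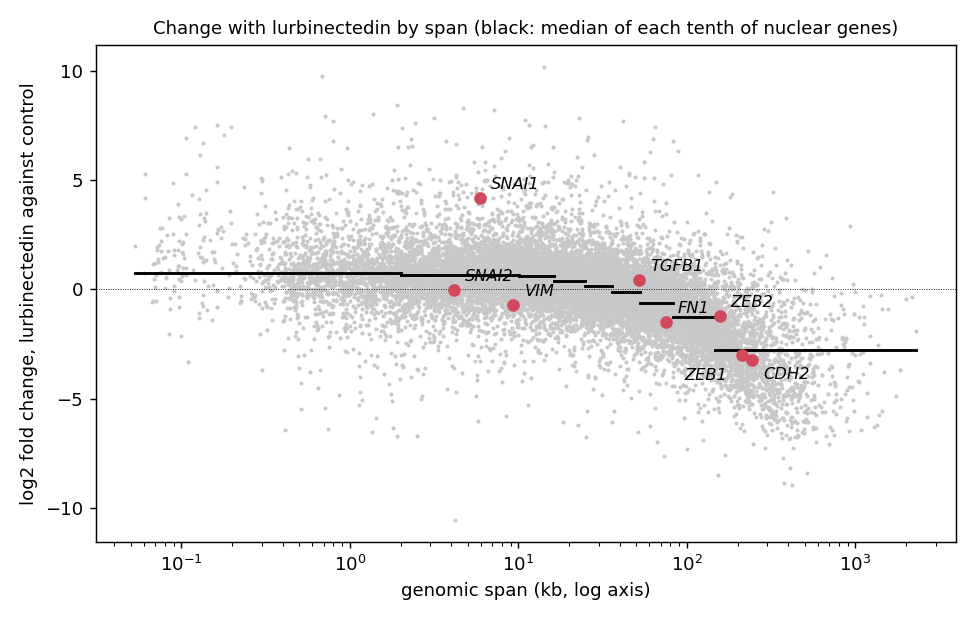
Log2 fold change with lurbinectedin against control for each tested nuclear gene (grey) by genomic span in kilobases on a log axis, with the members in red and a black line at the median of each of the 10 span groups. The median falls from 0.74 in the shortest group to -2.80 in the longest, where CDH2 and ZEB1 lie near the line and ZEB2 above it, while SNAI1 is far above its group's line and VIM below it.

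Teriflunomide alone moved few of the members. FN1 had 109, 119 and 141 CPM, above the 83.4 to 93.2 CPM of control, and the log2 fold change was 0.48 (SE 0.116, edgeR adjusted p = 0.0294). This was 1 call among 8 members, where 6.01% of all genes were called, 3.88% higher and 2.13% lower. The call did not hold with library size as the only scaling (edgeR adjusted p = 0.161), with a replicate block (0.0722), with only the groups compared (0.0773), or without control replicate 1 (0.140), 2 (0.116) or 3 (0.0967), teriflunomide replicate 2 (0.0547) or lurbinectedin replicate 2 (0.0523) or 3 (0.0528). Over the 22 alternatives its adjusted p ran from 0.00265 to 0.161. VIM had 73.7, 72.7 and 77.1 CPM, all above control, at a log2 difference of 0.34 (edgeR adjusted p = 0.118), and was called without the 2 libraries that stood apart (0.31, edgeR adjusted p = 0.0222). ZEB2 had 51.5, 51.5 and 100 CPM (log2 difference 0.58, edgeR adjusted p = 0.118; 0.54 and 0.00980 without the expression filter, where it was called) and ZEB1 53.8, 53.6 and 96.3 CPM (0.34, edgeR adjusted p = 0.373). In both ZEB genes replicate 3 was well above every other library, and without it the differences were 0.18 and 0.00 on the log2 scale. That library is the one with the mitochondrial share of 22.6%, whose part in these values was not tested. TGFB1 had 69.1, 63.5 and 51.8 CPM, all below control, at a log2 difference of -0.26 (edgeR adjusted p = 0.170). CDH2, SNAI1 and SNAI2 overlapped with control.

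The combination was compared with each drug alone. Against teriflunomide, 7 of 8 members were called, where 70.9% of all genes were. CDH2 was lower by a log2 fold change of -2.82, ZEB1 of -2.81, FN1 of -1.53, ZEB2 of -1.43 and VIM of -0.97. SNAI1 was higher by 4.07 and TGFB1 by 0.62 in the same comparison. SNAI2 had a log2 difference of -0.06, with an interval of -0.52 to 0.40.

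Against lurbinectedin, edgeR called 0 of the 8 members and 0% of the 16683 genes, with 2599 genes at an unadjusted p under 0.05. The 2 members at an unadjusted p under 0.05 were FN1, at a log2 difference of 0.45 (95% interval 0.20 to 0.71), and CDH2, at 0.58 (0.13 to 1.04). DESeq2 called 1 member, FN1, and 584 genes. Without teriflunomide replicate 3, a library of neither group compared, edgeR called CDH2 at 0.59 (adjusted p = 0.0304), FN1 at 0.46 (adjusted p = 0.00681) and ZEB2 at 0.36 (adjusted p = 0.0354). Over all genes, 2067 were called in that setting. Without both libraries that stood apart edgeR called 5 members: CDH2 at 0.75, ZEB1 at 0.64, FN1 at 0.499, ZEB2 at 0.36 and SNAI1 at -0.68 on the log2 scale. Over all genes, 3640 were called there. Over the 22 alternatives the edgeR or DESeq2 adjusted p ran from 0.000945 to 0.667 for CDH2, from 0.000855 to 0.599 for FN1 and from 0.0236 to 0.791 for ZEB2.

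The interaction asks whether teriflunomide had another effect on a gene when lurbinectedin was also given. It was called for 0 of the 8 members by edgeR, where 0.258% of all genes were called, and by DESeq2 for 0, with 0 members at an unadjusted p under 0.05. Estimates ran from -0.25 for VIM to 0.43 for CDH2 on the log2 scale, and the 95% intervals from -0.91 to 1.04, so an interaction of about 1 log2 unit is within them for some members. Without both libraries that stood apart, CDH2 was called at 0.80 (edgeR adjusted p = 0.00568, in a range up to 0.890 over the alternatives). In that setting 1839 genes were called, beside 43 with all libraries.

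Genes around the 10 members were examined in 6 lists drawn from general knowledge, holding 128 other genes. Of 29 epithelial junction and surface genes, 18 could be tested. With lurbinectedin 5 were called higher and 7 lower, where 36% of all genes were called higher and 35.7% lower, and the list's median log2 fold change was -0.26, against 0.05 over all genes tested. PARD3, a cell polarity scaffold, averaged 71.7 ± 3.90 CPM (SD, n = 3) in control and 0.913 ± 0.146 CPM with lurbinectedin, a log2 fold change of -6.29. PKP2, a desmosomal plaque protein, went from 21.6 ± 0.696 to 3.02 ± 0.626 CPM (log2 fold change -2.82). The 5 called higher are named after their values were seen. KRT8, a simple-epithelial keratin, went from 243 ± 8.03 to 422 ± 19.01 CPM, CTNNB1, which encodes beta-catenin, from 247 ± 9.64 to 368 ± 25.7 CPM, and JUP, which encodes plakoglobin, from 27.0 ± 2.18 to 38.2 ± 1.08 CPM. CDH3, which encodes P-cadherin, went from 2.26 ± 0.165 to 4.75 ± 0.876 CPM, and CLDN4, a claudin, from 0.538 ± 0.153 to 3.30 ± 0.626 CPM. Of the 7 called lower, only PARD3 and PKP2 were named by the rule. Other genes of the list with lower means are also given after their values were seen. TJP1 went from 80.9 ± 3.68 to 31.6 ± 2.78 CPM. Another claudin, CLDN7, went from 2.40 ± 0.453 to 0.861 ± 0.338 CPM, and OCLN from 0.846 ± 0.225 to 0.382 ± 0.0517 CPM. In the combination the list also had 5 calls higher and 7 lower, where 34.1% of all genes were called higher and 34.4% lower.

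Of 11 epithelial regulators, 8 were too low to test, among them GRHL2, OVOL1 and OVOL2. ELF3, an epithelial ETS factor named after its values were seen, was the only one called with lurbinectedin, at 0.153 ± 0.0743 CPM in control and 1.70 ± 0.405 CPM (log2 fold change 3.45). It stayed below 5 CPM. With the combination all 3 testable regulators were called higher, where 34.1% of all genes were: ELF3, ESRP2 and GRHL1, at combination means of 1.49, 0.465 and 2.01 CPM. The expression filter could keep a gene for its level in 1 group alone. A gene as low in control as ELF3 could thus be tested because it was high elsewhere, so the 3 calls are not a result about the list.

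The list of 38 mesenchymal matrix and cytoskeleton genes had 30 that could be tested. With lurbinectedin 9 were called higher and 16 lower, beside 36% and 35.7% of all genes, and the list's median was -0.73 on the log2 scale. The members of this list did not move together. CCN1, a matricellular protein, went from 7.40 ± 0.635 to 71.0 ± 1.44 CPM (log2 fold change 3.26). The fibrillar collagen gene COL1A1 was among the 16 lower, with 266 ± 6.60 CPM in control and 106 ± 9.26 CPM with lurbinectedin. Of the 7 fibroblast markers, COL1A1, COL1A2 and COL3A1 are also in this list, and DCN, LUM and PDGFRB were too low to test. The 7 markers summed to 521 to 550 CPM in control libraries and 187 to 221 CPM with lurbinectedin. Their part in the list's counts was not tested. The combination had 10 higher and 16 lower, beside 34.1% and 34.4% of all genes. With teriflunomide 2 of the 30 were called, both higher, where 3.88% of all genes were called higher and 2.13% lower. ACTA2, smooth muscle actin, went from 13.6 ± 0.998 to 29.1 ± 1.67 CPM (log2 fold change 1.10, edgeR adjusted p = 0.000374). THBS1, thrombospondin 1, went from 17.6 ± 0.942 to 27.4 ± 2.55 CPM (0.64, edgeR adjusted p = 0.0142).

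Among 14 other transcription factors linked to the transition, 8 could be tested, and TWIST1 had 1 count over all 12 libraries. With lurbinectedin 3 were called higher and 3 lower, shares near the 36% and 35.7% of all genes. TCF4, an E-protein, went from 30.9 ± 2.65 to 0.699 ± 0.145 CPM (log2 fold change -5.45), and HMGA2, an architectural chromatin protein, from 1360 ± 61.2 to 151 ± 10.5 CPM (-3.17). In the combination FOSL1, an AP-1 subunit, went from 30.4 ± 1.76 to 344 ± 129 CPM (3.498), and the counts were 3 higher and 4 lower, beside 34.1% and 34.4% of all genes. TCF3, another E-protein, was the list's only call with teriflunomide, where 2.13% of all genes were called lower and 3.88% higher. Its level was 153 ± 3.42 CPM in control and 104 ± 7.45 CPM with teriflunomide (log2 fold change -0.55, edgeR adjusted p = 0.00365).

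All 8 corepressors that ZEB and SNAI factors recruit could be tested. With lurbinectedin 6 were called lower, where 35.7% of all genes were, and 2 were not called, the median log2 fold change being -0.58. With the combination 7 were called lower, where 34.4% of all genes were. CTBP2, a corepressor bound by ZEB proteins, went from 88.5 ± 0.570 to 17.3 ± 1.72 CPM with lurbinectedin (log2 fold change -2.36), and RCOR1, a subunit of the CoREST complex, from 83.9 ± 2.003 to 31.45 ± 2.63 CPM (-1.42).

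The TGF-beta pathway list, with 26 of 28 genes tested, had 7 called higher and 12 lower with lurbinectedin at a median of -0.04, beside 36% and 35.7% of all genes. With the combination it had 6 higher and 12 lower, beside 34.1% and 34.4%. Both receptors named by the rule fell. TGFBR2, the ligand-binding receptor kinase, went from 182 ± 3.15 to 41.5 ± 1.87 CPM (log2 fold change -2.14), and TGFBR3, the coreceptor betaglycan, from 33.0 ± 3.78 to 1.18 ± 0.0754 CPM (-4.80). TGFBR1, the signalling receptor kinase, named after its values were seen, was called in the other direction, from 56.3 ± 4.53 to 91.0 ± 3.56 CPM (0.69). LTBP1, which holds latent TGF-beta in the matrix, went from 21.5 ± 1.18 CPM in control to 0.338 ± 0.146 CPM with the combination (-5.97). Over all 6 lists, the 44 genes called lower with lurbinectedin had a median span of 103 kb, and the 25 called higher one of 18.4 kb; the part of span in these counts was not tested.

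**Figure D5:**
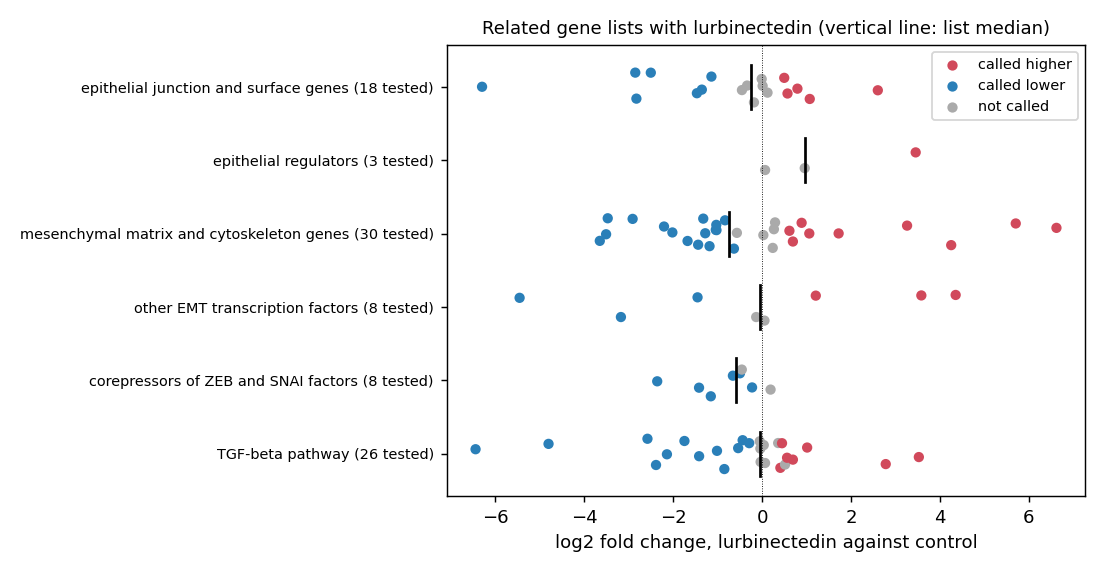
Log2 fold change with lurbinectedin against control of each tested gene in the 6 lists, with colours for genes called higher, lower or not called and a vertical line at the list median. The mesenchymal list has genes on both sides of 0, with COL5A2 at -3.65, CCN1 at 3.26 and a median of -0.73, and no corepressor was called higher.

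Profiles over the 12 libraries were compared by the root mean square difference between centred log2 values, with a pseudocount of 0.5 CPM. The gene nearest to CDH2 was EPS15, at 0.0940, beside a root mean square of 1.503 for the CDH2 profile itself, and the next was NCK2. For ZEB1 the nearest were ATRX, at 0.109, and PLEKHA5, and for ZEB2 SLK, at 0.0894, and TJP1. FN1 was nearest to DNMBP and PLS3, VIM to IPP and PPP4R1, SNAI2 to TCEAL9 and DNAJB4, and TGFB1 to MSI1 and CDC25B. In absolute units SNAI1 had the least close neighbours, RND1 at 0.240 and ZNF296 at 0.278. Its own profile was also the largest of the tested members, at a root mean square of 1.81. For SNAI2 the nearest gene was at 0.0666, beside 0.279 for its own profile, so the order differs relative to profile size. The 12 points share 4 groups, so these values are descriptions of likeness over groups.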

How the data were processed

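Raw read counts per gene, 1 file per library, were deposited by the authors. Per the submitters' processing notes, fastp 0.23.2, STAR 2.7.9 and featureCounts were used with hg38; strand use is not given in the sources used here. RNA was purified with a column kit and libraries were made with an mRNA kit, per the labels' protocols. Symbols were matched for 42028 of 60649 identifiers (69.3%). Counts were analysed in R 4.3.3 with edgeR 4.0.16: filterByExpr left 16683 genes, TMM scaled the libraries, and all 12 libraries entered 1 robust quasi-likelihood fit, with a mean for each group. In all, 6 contrasts were tested, each adjusted by Benjamini-Hochberg over all genes tested and called under 0.05. CPM values are TMM-scaled, and dividing by exon length in the files gave values per kilobase. The fit was tested on simulated data. Genes were named by rule: the 10 members, and from each list and each contrast with control at most 2 called genes of at least 5 CPM with the smallest adjusted p. Some genes in the lists are not reported by name. The members and lists were chosen with earlier results of these data known. Alternatives included DESeq2 1.42.0, other scalings, filters and thresholds, and leaving out libraries.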

Additional observations from a re-analysis of the deposited data

How the results depend on the processing

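The calls with lurbinectedin and the combination against control numbered 6 or 7 of 8 members under all 22 alternatives, and CDH2, FN1, VIM, SNAI1, ZEB1 and ZEB2 were called in each. With teriflunomide, where 1 member was called, the count was 0 with library size as the only scaling, with a replicate block, with only the groups compared or at an adjusted p under 0.01, and 2 without the expression filter or without the 2 libraries that stood apart (an alternative chosen after seeing the data). Leaving out 1 library gave 0 to 1. For the combination against lurbinectedin, with 0 called, the count was 1 without the filter, 1 with DESeq2, 5 without the 2 libraries, and 0 to 3 on leaving out 1 library. For the interaction it was 1 without the 2 libraries. The 3 list genes called with teriflunomide became 10 without the filter, 7 with DESeq2, 23 without the 2 libraries, and 2 to 12 on leaving out 1 library. The cause was not tested. Over all genes, the 1002 calls with teriflunomide ranged from 216 (without control replicate 3) to 2757 (without the 2 libraries), the 43 for the interaction from 2 to 1839, and the 0 for the combination against lurbinectedin up to 3640 (2067 without teriflunomide replicate 3 alone). Same-numbered libraries did not clearly deviate together (correlations of -0.51 to 0.21, and not every library correlated best with its own number). With 3 libraries per group this check shows no pairing by number but cannot exclude it. The replicate block is given for its counts only: 415 genes with teriflunomide and 7 members with lurbinectedin.

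Signs changed only for differences that were not called. Without teriflunomide replicate 3, the log2 difference with teriflunomide became -0.0485 for CDH2 and -0.0966 for SNAI2, and without both libraries -0.0477 and -0.0956; leaving out 1 library otherwise gave up to 0.249 and 0.429. The SNAI2 difference of the combination from teriflunomide became 0.298 without teriflunomide replicate 3, 0.103 without combination replicate 3 and 0.103 without both libraries, and was as low as -0.244 on leaving out 1 library; with lurbinectedin against control it was 0.00257 with a filter of 1 CPM in 3 libraries. Between the combination and lurbinectedin, VIM became -0.0130 without lurbinectedin replicate 1 and was at most 0.202 on leaving out 1 library. TGFB1 became 0.0116 with library size only, 0.0408 without mitochondrial genes in the library size and 0.00402 without lurbinectedin replicate 3, with a lowest value of -0.0945 on leaving out 1 library. Library size as the only scaling made 39.2% of calls with lurbinectedin higher, against 50.2% with TMM, and 41.0% against 49.8% with the combination; leaving mitochondrial genes out of the library size made 75.0% of those with teriflunomide higher, against 64.6%. Depth limits CDH1 and EPCAM most, with 3 counts each over all 12 libraries; of the tested members, SNAI1 had the fewest counts in control, 103 over 3 libraries.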

Other observations

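The neuroendocrine markers were low in these spheroids but differed between groups. Their summed level was 25.1 to 26.6 CPM in control libraries, 24.1 to 25.2 CPM with teriflunomide, 42.5 to 45.4 CPM with lurbinectedin and 43.8 to 50.4 CPM with the combination. SYP, a synaptic vesicle protein, averaged 16.8 ± 0.765 CPM (SD, n = 3) in control and 30.9 ± 1.42 CPM with lurbinectedin, a log2 fold change of 0.88. CHGA (2.74) and CHGB (1.53), which encode chromogranins, were also called higher, and DLL3 was not called (0.26). NEUROD1, a neuronal transcription factor, was called in the other direction, from 4.03 ± 0.317 to 1.62 ± 0.110 CPM (-1.31). As with ELF3, the expression filter could have kept a low marker such as CHGA for its level in 1 group alone. Only 5 of the 9 neuroendocrine markers could be tested, and 36% of all genes were called higher with lurbinectedin and 35.7% lower. Among so many changed genes, these calls are not a result about the markers as a group. YAP1, a coactivator in the Hippo pathway, went from 246 ± 11.96 to 64.9 ± 6.41 CPM (-1.92). Of the other non-neuroendocrine markers examined, REST (-0.31) and MYC (-0.18) were not called with lurbinectedin, and POU2F3 was too low to test.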
